A study of Mus musculus with 12 samples.

Results

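Natural killer T (NKT) cells that had passed through the CD4+CD8+ double-positive (DP) stage of the thymus were compared between liver and thymus. The comparison uses 6 of the 12 libraries of the series, chosen by their titles and column names: 3 of YFP+ cells from the liver and 3 of YFP+ cells from the thymus. All mice were C57BL/6 and carried E8III-Cre, which is active at the DP stage. In the YFP+ mice it acts on a Rosa26 locus with a loxP-flanked STOP, so that cells descended from DP thymocytes are marked. In the cKO mice, used here only for reference (3 liver and 3 thymus libraries), the same Cre deletes a floxed Rag2, and NKT cells of double-negative (DN) origin remain. In every group the sorted cells were 7AAD-, CD45R-, CD4- and CD8-, bound a CD1d dimer and carried TCRb; this gate does not name YFP. Thymocytes were first depleted of CD4+, CD8+ and DP cells on magnetic columns. Age, sex and number of mice are not given in the labels, and nothing says that the libraries of a group are from separate animals. The p-values therefore reflect only library-to-library spread, which may be technical.

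NKT cells are T cells with a semi-invariant receptor for lipids shown by CD1d. They arise in the thymus, mainly from DP thymocytes, and settle in many organs, and in the mouse liver they are among the most abundant T cells. Functional subsets are told apart by transcription factors and cytokines: NKT1 cells use T-bet and make interferon-gamma, NKT2 cells use PLZF and GATA3 and make IL-4, and NKT17 cells make IL-17. Leaving the thymus is linked to KLF2 and the sphingosine phosphate receptor S1PR1, and staying in tissue to CXCR6, CD69 and integrins.

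The deposited values are FPKM, fragment counts scaled to the length of a transcript and to all mapped fragments. Liver and thymus came in separately normalized tables, which are named for single-end (liver) and paired-end (thymus) reads. The 6 libraries summed to 198790 to 212688 FPKM in the thymus and 509267 to 558042 FPKM in the liver, so FPKM cannot be compared directly between tissues. Ranks within a library were used instead. A percentile rank of 100 is the highest gene of a library among the 9800 genes whose FPKM averaged 1 or more across the 6 libraries, and the test compared normal scores of these ranks (limma, Benjamini-Hochberg adjusted p of at most 0.05). Tissue, table and library type cannot be told apart in any result below, because every liver library is of 1 kind and every thymus library of the other. Sex makeup cannot be told apart from tissue either: the Y-linked gene Eif2s3y, chosen after its values were seen, had 0, 0 and 0 FPKM in the thymus and 24.8, 25.04 and 24.5 FPKM in the liver. Xist, the X-inactivation transcript of female cells, had 3.596, 3.76 and 3.92 FPKM in the thymus and 3.301, 2.698 and 2.81 FPKM in the liver.

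Liver titles and descriptions name opposite mice. The libraries titled liver YFP+ are described as coming from the conditional Rag2-deficient mouse, and those titled liver cKO as coming from the YFP+ mouse. The column headers have the same group names as the titles, which were followed. Rag2, the recombinase gene that the Cre deletes in the cKO mice, was listed at 1.36, 0.985 and 1.07 FPKM in the libraries titled liver YFP+ and at 0 in the 3 titled liver cKO. Taken by description, the liver libraries gave 7346 called genes, of which 6616 were also called by the titles. For the gene lists the numbers of rising and falling genes are also given by description and on log2 values as deposited, except for marker lists that passed the filter only through the liver, and a gene whose described shift changes its call or direction by description has that value beside it. Differences between origins were computed by the titles alone.

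Ranks differed between the tissues for most genes. Of the 9800 genes, 7652 (78.1%) passed the test, 3763 higher (38.4%) and 3889 lower (39.7%) in the liver. On log2(FPKM + 1) as deposited, where the median of all tested genes moved by 0.389, the split was 5099 higher and 2761 lower. Percentile ranks correlated at 0.987 to 0.989 between thymus libraries, 0.968 to 0.98 between liver libraries and 0.634 to 0.68 between tissues (Pearson r across genes, a description). Because so many genes passed, a stricter rule is used below. A large shift is a called gene whose mean percentile moved by at least 25 points and whose 3 liver libraries do not overlap the 3 thymus libraries. By that rule 2394 genes (24.4%) shifted, 1089 up (11.1%) and 1305 down (13.3%). By description 2030 did, 907 up (9.26%) and 1123 down (11.5%), and 1782 of the 2030 were the same genes. Of the 7346 genes called by description 3533 rose and 3813 fell. In ranks within length bins 3454 of 9664 genes rose and 3442 fell, with 9.7% large increases and 11.7% large decreases. Within GC and length bins 3348 rose and 3400 fell, with 9.33% and 11%. The counts of each list are read against these shares of all tested genes under the same setting. Just inside and outside the limit lay Dcp1a and Ptrh2, both at 25.01 points, and Slc2a4rg-ps at 24.99 points. Of the tested genes, 7955 (81.2%) had no overlap between tissues.

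**Figure D1:**
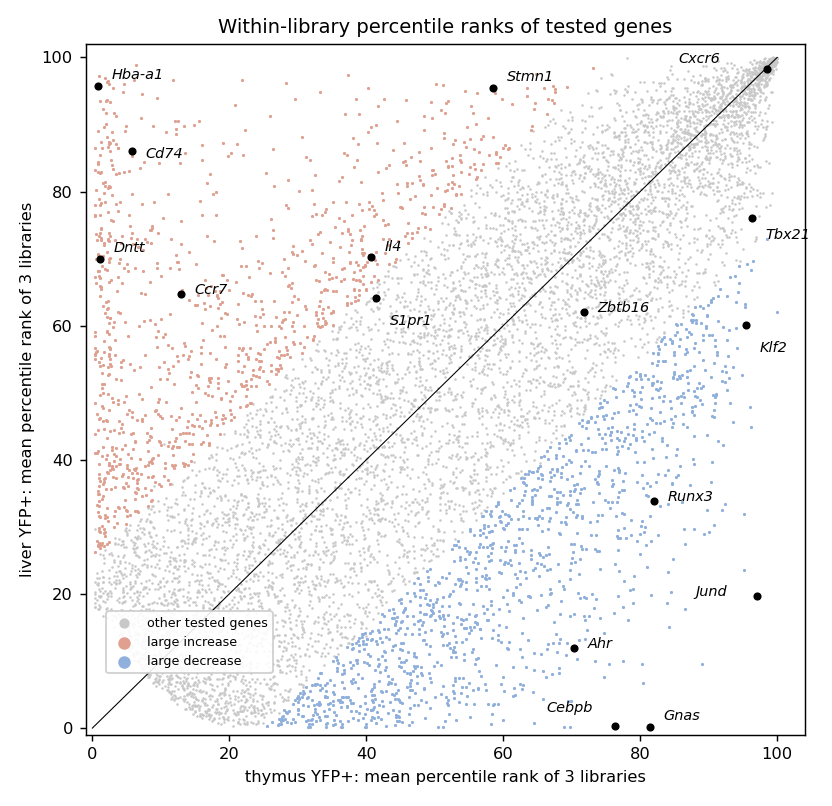
Mean percentile rank of each tested gene in the 3 thymus YFP+ (x axis) and 3 liver YFP+ libraries (y axis), with 1089 large increases in red, 1305 large decreases in blue and other tested genes in grey; the line marks equal ranks. Cxcr6 sits at the top in both tissues, Klf2 and Ahr fall below the line, and Dntt, Cd74 and Hba-a1 lie at the left edge, near the bottom in the thymus and high in the liver.

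Cxcr6, Cd3e, Klrb1c and Id2 ranked high in both tissues. Cxcr6, the chemokine receptor that holds NKT cells in liver sinusoids, had 163, 165 and 188 FPKM in the thymus and 461, 466 and 431 FPKM in the liver. Its mean percentile was 98.6 ± 0.083 in the thymus and 98.2 ± 0.058 in the liver (SD, n = 3, here and below), a fall of 0.35 points that passed the test (adjusted p = 0.0022) but turned into a rise on log2 values as deposited, with median-ratio scaling and in ranks within length bins. Cd3e, a chain of the T cell receptor complex, ranked at 99.3 ± 0.027 in the thymus and 99.01 ± 0.058 in the liver, and Klrb1c, which encodes NK1.1, at 95.9 ± 0.3 in the thymus and 95.7 ± 0.092 in the liver (adjusted p = 0.565). Id2, an inhibitor of E proteins that NKT1 cells need, ranked at 99.8 ± 0.016 in the thymus and 99.7 ± 0.01 in the liver. These genes thus ranked high in all 6 libraries. Other T cell and NKT genes given below, among them Zbtb16, Thy1 and Fyn, ranked lower than these in both tissues.

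Among NKT1 genes, Tbx21, Runx3 and Hopx ranked lower in the liver, and Ccl4, Ifng and Bhlhe40 ranked higher. Tbx21, which encodes T-bet, had 70.2, 78.1 and 73.4 FPKM in the thymus and 20.5, 19.7 and 26.9 FPKM in the liver. Its percentile went from 96.3 ± 0.29 in the thymus to 75.99 ± 2.81 in the liver (score difference -1.08, SE 0.048, adjusted p = 4.15e-07), and the tissues did not overlap. Runx3, a partner of T-bet in type 1 and cytotoxic cells, moved further, from 81.95 ± 0.57 in the thymus to 33.9 ± 7.27 in the liver (score difference -1.33, SE 0.095, adjusted p = 5.05e-06). Hopx, a transcriptional cofactor of type 1 effector cells, fell from 82.9 ± 1.87 in the thymus to 50.7 ± 1.4 in the liver (score difference -0.93, SE 0.051, adjusted p = 1.2e-06). Ccl4, a chemokine that activated lymphocytes release, had 4.23, 5.42 and 1.85 FPKM in the thymus and 20.6, 28.4 and 19.95 FPKM in the liver. It rose from 35.97 ± 16.1 in the thymus to 76.1 ± 3.19 in the liver (score difference 1.10, SE 0.2, adjusted p = 0.00125), but missed the threshold in ranks within length bins (adjusted p = 0.0576), within GC and length bins (0.0608) and with libraries taken by description (0.218). Ifng had 18.7, 24.3 and 11.5 FPKM in the thymus and 59.6, 56.4 and 57.8 FPKM in the liver. All 3 liver libraries were above the thymus ones, which varied more (score difference 0.38, SE 0.14, adjusted p = 0.0305); the call was lost without any 1 of the liver libraries (adjusted p = 0.0571 to 0.0665). It was also lost by description (adjusted p = 0.331), within length bins (0.346), within GC and length bins (0.726), on percentile ranks (0.0718) and with no filter on low values (0.0625). Bhlhe40, a transcription factor of type 1 effector cells, had 11.3, 12.99 and 7.92 FPKM in the thymus and 22.99, 25.5 and 28.001 FPKM in the liver (score difference 0.33, SE 0.1, adjusted p = 0.0173), a rise that reversed by description (score difference -0.14, adjusted p = 0.23). In the whole list of 20 NKT1 and type 1 genes, 19 were tested, 6 rose and 10 fell, and large shifts numbered 1 up and 2 down, with a median shift of -0.12 points against 0.069 points for all tested genes. On log2 values as deposited 11 rose and 5 fell, and by description 3 rose and 10 fell.

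Gzma, Gzmb and Prf1 moved by small amounts. Gzma and Gzmb, granzymes that enter target cells, stood at 97.6 ± 0.097 in the thymus and 97.02 ± 0.2 in the liver and at 98.97 ± 0.036 in the thymus and 98.1 ± 0.085 in the liver, and Prf1, the pore-forming perforin, at 84.9 ± 1.18 in the thymus and 83.1 ± 2.29 in the liver (adjusted p = 0.229; by description it rose, adjusted p = 0.0098). Lamp1, a lysosomal membrane protein exposed on degranulation, had 17.1, 18.3 and 19.8 FPKM in the thymus and 4.61, 3.42 and 2.54 FPKM in the liver and fell from 81.5 ± 0.81 in the thymus to 31.7 ± 9.83 in the liver (score difference -1.39, SE 0.12, adjusted p = 1.91e-05). It was the sole large shift among 18 tested of 21 listed genes, of which 1 rose and 11 fell; on log2 values as deposited 11 rose and 4 fell, and by description 3 rose and 12 fell.

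NKT2 genes moved in both directions. Il4 had 4.44, 4.197 and 4.02 FPKM in the thymus and 20.1, 17.1 and 13.4 FPKM in the liver. Every liver library ranked above every thymus library, from 40.7 ± 2.42 in the thymus to 70.2 ± 5.02 in the liver (score difference 0.77, SE 0.08, adjusted p = 4.34e-05), although the rise missed the threshold in ranks within length bins (adjusted p = 0.119). Ccr4, a chemokine receptor of type 2 cells, had 1.196, 1.97 and 2.02 FPKM in the thymus and 8.46, 7.06 and 6.52 FPKM in the liver and rose from 17.1 ± 4.86 in the thymus to 51.6 ± 4.92 in the liver (score difference 1.002, SE 0.12, adjusted p = 8.94e-05). In contrast Il17rb, the IL-25 receptor chain, had 8.14, 8.55 and 9.34 FPKM in the thymus and 2.69, 4.03 and 3.53 FPKM in the liver and fell from 62.1 ± 0.88 in the thymus to 31.2 ± 3.94 in the liver (score difference -0.80, SE 0.07, adjusted p = 1.69e-05). Zbtb16, which encodes PLZF, had 11.01, 12.2 and 13.5 FPKM in the thymus and 8.91, 12.01 and 13.4 FPKM in the liver, and fell from 71.8 ± 1.9 in the thymus to 62 ± 3.57 in the liver (score difference -0.27, SE 0.06, adjusted p = 0.0034). That direction reversed in ranks within length bins (score difference 0.05, adjusted p = 0.531) and within GC and length bins (0.19, adjusted p = 0.0296); its longest annotated transcript has 5114 bases. Gata3 ranked at 94.8 ± 0.12 in the thymus and 92.4 ± 0.91 in the liver, a small fall in ranks (adjusted p = 0.00112) and a rise on log2 values as deposited and with median-ratio scaling. Of 13 listed genes 12 were tested, 6 rose and 5 fell, with 4 large increases (Il4, Ccr4, Cd4 and Plac8) and 1 large decrease. The sorted cells were CD4-, and Cd4 is also in the list of DP thymocyte markers given below, which were higher in these liver libraries. As deposited 9 rose and 1 fell. By description 3 rose and 6 fell, with 2 large increases and a median shift of -7.22 points (6.27 by the titles), and Plac8 (score difference -0.26, adjusted p = 0.291) and Cd4 (-0.34, adjusted p = 0.0772) reversed.

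More NKT17 genes fell than rose. Il23r, the IL-23 receptor chain, had 3.77, 2.901 and 4.89 FPKM in the thymus and 1.84, 2.39 and 1.61 FPKM in the liver (score difference -0.64, SE 0.13, adjusted p = 0.00249). Sdc1, a proteoglycan on NKT17 cells, had 2.1, 2.62 and 3.57 FPKM in the thymus and 0.112, 1.44 and 1.09 FPKM in the liver (score difference -1.19, SE 0.3, adjusted p = 0.00687), a call that ranks within GC and length bins lost (adjusted p = 0.0747). Of 19 listed genes 12 were tested, 3 rose and 8 fell, and none shifted by the 25-point rule. On log2 values as deposited 4 rose and 4 fell. By description 2 rose and 9 fell, with 3 large decreases.

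**Figure D2:**
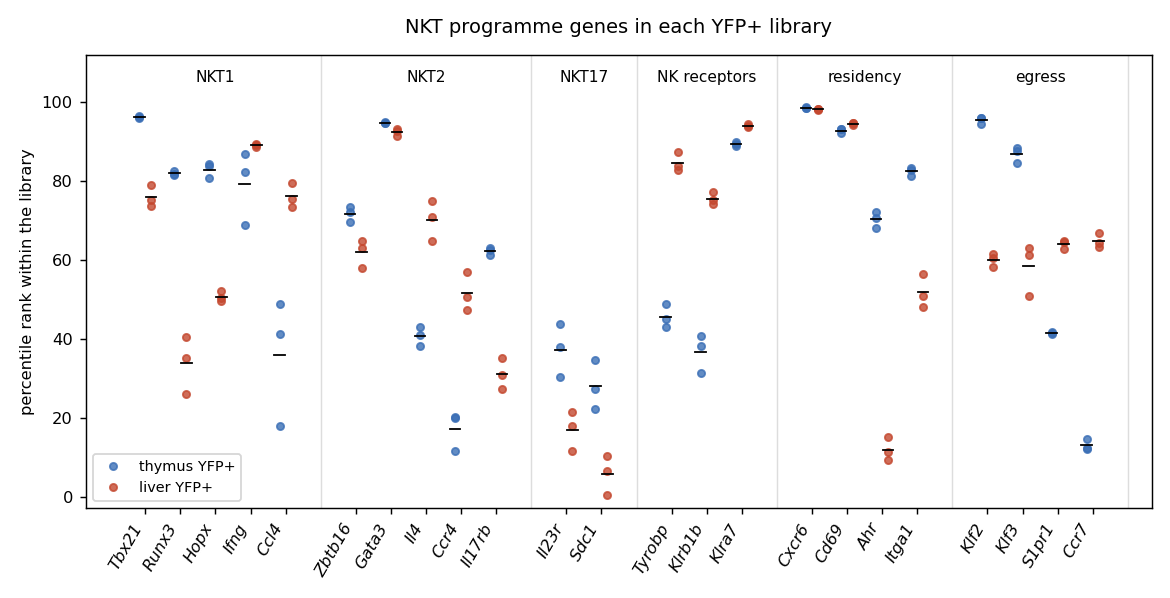
Percentile rank (y axis) of NKT programme genes in each YFP+ library, thymus in blue and liver in red; bars mark group means of 3 libraries. Tbx21, Runx3, Ahr, Itga1, Klf2 and Klf3 are lower in every liver library, Il4, Ccr4, Tyrobp, S1pr1 and Ccr7 are higher, and Cxcr6 and Cd69 stay within a few points.

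NK receptors and their adaptors moved in both directions in ranks. Tyrobp, which encodes the activating adaptor DAP12, had 5.42, 4.76 and 4.78 FPKM in the thymus and 48.4, 37.2 and 34.1 FPKM in the liver and rose from 45.6 ± 2.88 in the thymus to 84.6 ± 2.45 in the liver (score difference 1.13, SE 0.066, adjusted p = 1.73e-06). Klrb1b, an inhibitory NKR-P1 receptor, had 4.15, 3.01 and 4.02 FPKM in the thymus and 23.001, 20.4 and 21.9 FPKM in the liver and rose from 36.7 ± 4.86 in the thymus to 75.5 ± 1.61 in the liver (score difference 1.03, SE 0.074, adjusted p = 5.16e-06). Klrb1f was the third large increase, from 22.4 ± 2.62 in the thymus to 51.1 ± 8.52 in the liver. Klra7, a Ly49 receptor for MHC class I, had 29.1, 28.7 and 33.04 FPKM in the thymus and 123, 109 and 104 FPKM in the liver, with a rise of 4.52 points (score difference 0.30, SE 0.028, adjusted p = 2.19e-05) that ranks within GC and length bins did not hold (adjusted p = 0.7). Ly49 genes are near-identical and their reads are divided by a model, so single members are uncertain. Of 32 listed genes 29 were tested, 13 rose and 8 fell; as deposited 26 rose and 2 fell, with median-ratio scaling 19 and 2, and by description 18 and 8. Large increases made up 3 of the 29, close to the 11.1% of all genes, and large decreases 0. Within length bins 11 of 28 rose and 10 fell, with 1 large increase and 1 large decrease. Within GC and length bins 7 rose and 11 fell, with 0 large increases and 1 large decrease.

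Genes of egress and residency split. Klf2, the transcription factor that turns on S1pr1, had 66.04, 69.4 and 53.9 FPKM in the thymus and 9.04, 10.7 and 11.5 FPKM in the liver and fell from 95.5 ± 0.86 in the thymus to 60.1 ± 1.6 in the liver (score difference -1.44, SE 0.049, adjusted p = 1.27e-07). Klf3 fell with it, from 86.9 ± 2.08 in the thymus to 58.4 ± 6.61 in the liver (score difference -0.91, SE 0.087, adjusted p = 2.7e-05). S1pr1 had 4.28, 4.23 and 4.504 FPKM in the thymus and 12.2, 12.8 and 12.2 FPKM in the liver and went the other way, from 41.5 ± 0.2 in the thymus to 64.1 ± 1.18 in the liver (score difference 0.58, SE 0.05, adjusted p = 1.57e-05). Ccr7, the chemokine receptor for entry to lymph nodes, had 1.26, 1.48 and 1.33 FPKM in the thymus and 11.8, 12.2 and 14.6 FPKM in the liver and rose from 12.96 ± 1.38 in the thymus to 64.8 ± 1.76 in the liver (score difference 1.51, SE 0.069, adjusted p = 5.06e-07). Taken by description, Klf2 still fell and S1pr1 still rose, while Ccr7 reversed (score difference -0.04, adjusted p = 0.855). In the list of 10 genes, 9 were tested, 6 rose and 3 fell, with 2 large shifts in each direction and a median shift of 17.5 points; 2 of the 9 passed the filter only through the liver. As deposited 6 rose and 3 fell. By description 3 rose and 3 fell, with 2 large increases, 1 large decrease and a median shift of 0.575 points. DP thymocyte and B cell genes, given below, were also higher in these liver libraries, and their part in Ccr7 was not tested.

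Among residency genes, Ahr, the aryl hydrocarbon receptor, had 12.04, 10.6 and 12.3 FPKM in the thymus and 1.32, 1.84 and 1.395 FPKM in the liver. It fell from 70.3 ± 1.95 in the thymus to 11.9 ± 2.96 in the liver (score difference -1.72, SE 0.088, adjusted p = 8.84e-07), and no liver library came near a thymus one. Itga1, the CD49a chain of a collagen receptor, had 19.6, 19.3 and 19.1 FPKM in the thymus and 6.55, 6.4 and 9.33 FPKM in the liver and fell from 82.5 ± 0.97 in the thymus to 51.8 ± 4.24 in the liver (score difference -0.89, SE 0.06, adjusted p = 3.98e-06). Cd69, which binds and removes S1PR1 from the surface, stood at 92.8 ± 0.64 in the thymus and 94.5 ± 0.27 in the liver, a small rise (score difference 0.14, SE 0.03, adjusted p = 0.00293) that reversed by description (score difference -0.12, adjusted p = 0.0114). Of 16 listed genes 11 were tested, 3 rose and 7 fell, with Ahr and Itga1 the 2 large decreases; log2 values as deposited gave 6 and 3, and the libraries by description 1 and 8.

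Cytokine receptors ranked lower in the liver, while chemokine receptors and integrins split by scale and by label. Itgb1, the common beta-1 chain, had 49.3, 51.04 and 50.4 FPKM in the thymus and 11.4, 12.1 and 15.6 FPKM in the liver and fell from 94.3 ± 0.27 in the thymus to 65.1 ± 2.95 in the liver (score difference -1.20, SE 0.045, adjusted p = 1.87e-07). Itgal, the LFA-1 alpha chain, fell from 79.1 ± 0.62 in the thymus to 50.1 ± 4.53 in the liver (score difference -0.81, SE 0.062, adjusted p = 8.13e-06). Cxcr4, the receptor for CXCL12, rose from 16.4 ± 4.04 in the thymus to 62.5 ± 2.2 in the liver (score difference 1.30, SE 0.095, adjusted p = 5.7e-06). Of 24 listed chemokine receptors and integrins 20 were tested, 3 rose and 11 fell, with 1 large increase and 3 large decreases. As deposited 11 rose and 7 fell, and by description 8 rose and 9 fell, with 2 large increases and 0 large decreases. Cytokine receptors fell in 17 of 19 tested genes and rose in 1, where 39.7% of all tested genes fell and 38.4% rose. Their median shift was -10.7 points, and the 3 large decreases were near the 13.3% of all tested genes. As deposited 4 rose and 10 fell, and by description 0 and 15. Within length bins 1 rose and 15 fell, with a median shift of -3.49 points. Within GC and length bins 3 rose and 14 fell, with a median shift of -7.43 points. Il12rb1, the IL-12 and IL-23 receptor chain, had 9.89, 11.3 and 11.7 FPKM in the thymus and 3.15, 4.24 and 4.23 FPKM in the liver and fell from 68.7 ± 1.84 in the thymus to 34.7 ± 2.76 in the liver (score difference -0.88, SE 0.062, adjusted p = 4.63e-06). Tgfbr2, the TGF-beta receptor, fell from 85.1 ± 0.96 in the thymus to 58.6 ± 2 in the liver (score difference -0.83, SE 0.045, adjusted p = 1.18e-06). Il7r ranked at 99.4 ± 0.056 in the thymus and 97.5 ± 0.21 in the liver and Il2rb at 99.3 ± 0.062 in the thymus and 97.9 ± 0.27 in the liver. The exception was Il2ra, the high-affinity IL-2 receptor chain, which rose from 4.04 ± 0.69 in the thymus to 21.8 ± 1.4 in the liver (score difference 0.97, SE 0.1, adjusted p = 4.34e-05), though not by description (adjusted p = 0.151). Il2ra was 1 of 2 tested genes of the list with a thymus mean under 1 FPKM. It passed the filter only through the liver and was thus selected for a higher liver level.

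T cell receptor signalling genes were mixed. Fyn, a kinase that NKT development needs, had 19.3, 18.04 and 18.9 FPKM in the thymus and 3.87, 3.896 and 3.33 FPKM in the liver and fell from 81.9 ± 0.94 in the thymus to 33.7 ± 3.91 in the liver (score difference -1.33, SE 0.064, adjusted p = 6.35e-07). Thy1, a surface glycoprotein of T cells, had 3.33, 5.17 and 3.55 FPKM in the thymus and 37.9, 45.2 and 35.6 FPKM in the liver and rose from 38.7 ± 7.54 in the thymus to 84.7 ± 1.48 in the liver (score difference 1.31, SE 0.094, adjusted p = 5.23e-06). Plcg1, the phospholipase below the receptor, was the other large decrease. All 23 listed genes were tested, 6 rose and 13 fell, with a median shift of -0.67 points; as deposited 17 rose and 4 fell, and by description 5 and 14. Checkpoint genes rose in 6 and fell in 3 of 12 tested; as deposited 9 rose and 1 fell, and by description 4 and 5. Tigit, an inhibitory receptor, had 1.302, 1.77 and 2.42 FPKM in the thymus and 12.9, 11.2 and 13.4 FPKM in the liver and rose from 18.3 ± 5.75 in the thymus to 64.2 ± 2.45 in the liver (score difference 1.28, SE 0.11, adjusted p = 1.55e-05), and Tnfrsf4, which encodes OX40, had 1.52, 1.66 and 1.59 FPKM in the thymus and 6.76, 5.96 and 5.47 FPKM in the liver. The Tnfrsf4 rise reversed by description (score difference -0.855, adjusted p = 0.00187) and lost its call within length bins (adjusted p = 0.143).

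Immediate early genes moved in both directions. Fosb, an AP-1 subunit, had 0.817, 1.11 and 0.428 FPKM in the thymus and 12.4, 17.95 and 14.9 FPKM in the liver, and Nr4a1, a nuclear receptor induced by T cell receptor signals, had 1.65, 1.72 and 1.26 FPKM in the thymus and 14.3, 16.9 and 15.6 FPKM in the liver. Nr4a1 rose from 15.1 ± 3.24 in the thymus to 69.2 ± 1.25 in the liver (score difference 1.54, SE 0.085, adjusted p = 1.28e-06). Atf3, a stress-induced factor, had 0.231, 0.574 and 0 FPKM in the thymus and 6.53, 6.51 and 6.36 FPKM in the liver and rose from 3.06 ± 2.48 in the thymus to 48.6 ± 2.14 in the liver (score difference 1.97, SE 0.23, adjusted p = 7.55e-05), a call lost by description (adjusted p = 0.606). Jund, another AP-1 subunit, went far in the other direction, with 93.9, 96.1 and 83.6 FPKM in the thymus and 1.43, 2.29 and 2.99 FPKM in the liver (score difference -2.76, SE 0.12, adjusted p = 3.28e-07). Of 32 listed genes 28 were tested, 9 rose and 12 fell, with 5 large increases, 2 of them in genes that passed the filter only through the liver, and 2 large decreases. As deposited 12 rose and 10 fell. By description 4 rose and 16 fell, with 2 large increases and 5 large decreases. Liver replicate 1 stood apart for Junb, at 32.8, 126 and 106 FPKM, and Ier2, at 43.6, 116 and 105 FPKM. Over the 6 fits that leave out 1 library, 8 to 9 genes of the list rose and 12 to 16 fell. Hspa1b, a stress-induced chaperone whose reads are shared with its copy Hspa1a, had 7.12, 7.22 and 5.997 FPKM in the thymus and 0.869, 1.14 and 0.968 FPKM in the liver (score difference -1.66, SE 0.092, adjusted p = 1.34e-06). Hspe1, a mitochondrial chaperone, rose from 69.3 ± 0.99 in the thymus to 95.7 ± 0.18 in the liver (score difference 1.21, SE 0.03, adjusted p = 4.61e-08).

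Cell cycle genes ranked higher in the liver. Of 35 listed genes 30 were tested, 24 rose and 5 fell, with 12 large increases, 0 large decreases and a median shift of 17.0 points. Over all tested genes 38.4% rose, 39.7% fell and 11.1% had a large increase. Among the 30, 7 passed the filter only through the liver, with a thymus mean under 1 FPKM, and were thus selected for a higher liver level; they hold 4 of the 12 large increases. Birc5, which encodes survivin of the mitotic chromosomal passenger complex, had 0.094, 0.269 and 0.216 FPKM in the thymus and 8.73, 8.64 and 6.96 FPKM in the liver and rose from 2.79 ± 0.62 in the thymus to 54.1 ± 4.55 in the liver (score difference 2.02, SE 0.1, adjusted p = 7.89e-07). Tyms, the thymidylate synthase, had 1.08, 0.843 and 1.19 FPKM in the thymus and 20.8, 18.03 and 20.9 FPKM in the liver and rose from 9.56 ± 1.57 in the thymus to 73.9 ± 2 in the liver (score difference 1.95, SE 0.076, adjusted p = 2.23e-07). Stmn1, a microtubule regulator of dividing cells, had 5.503, 8.98 and 9.26 FPKM in the thymus and 159, 145 and 143 FPKM in the liver and rose from 58.5 ± 8.04 in the thymus to 95.5 ± 0.15 in the liver (score difference 1.47, SE 0.09, adjusted p = 2.2e-06). Ube2c, which marks proteins for destruction in mitosis, rose by 58.4 points, Ccnb1, the mitotic cyclin B1, by 57.7 points, and Rrm2 and Tk1, which supply nucleotides, by 49.7 and 47.9 points. Replication licensing genes moved less: Mcm5 ranked at 67.6 ± 0.29 in the thymus and 72.3 ± 3.04 in the liver (adjusted p = 0.0437, and 0.283 by description) and Mcm2 at 79.5 ± 0.77 in the thymus and 74.1 ± 2.71 in the liver. Within GC and length bins 12 large increases were counted. As deposited 26 rose and 1 fell. Taken by description, 12 rose and 5 fell, with 4 large increases. DP thymocyte markers were higher in the same libraries, from a summed 19.7 to 25.1 FPKM in the thymus to 98.2 to 114 FPKM in the liver, and their part in the cell cycle genes was not tested. Replication-dependent histone genes rose in 12 and fell in 1 of 19, with 8 large increases and 1 large decrease; 5 of the 19, with 2 of the large increases, passed the filter only through the liver. As deposited 14 rose and 1 fell, and by description 10 rose and 5 fell, with 3 large increases and 2 large decreases. Large increases numbered 2 within length bins and 2 within GC and length bins. Hist1h4d had 5.94, 7.37 and 5.27 FPKM in the thymus and 97.4, 101 and 107 FPKM in the liver and rose from 51.9 ± 5.93 in the thymus to 93.5 ± 0.38 in the liver (score difference 1.47, SE 0.071, adjusted p = 6.36e-07); histone copies share reads.

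Sterol and fatty acid synthesis genes split, with 6 large increases among 16 tested genes. Fdps, which makes farnesyl pyrophosphate, had 0.94, 1.31 and 1.397 FPKM in the thymus and 22.1, 18.1 and 17.1 FPKM in the liver and rose from 11.6 ± 2.12 in the thymus to 72.9 ± 3.33 in the liver (score difference 1.82, SE 0.086, adjusted p = 5.89e-07). Sqle, the squalene epoxidase, had 0.348, 0.509 and 0.255 FPKM in the thymus and 4.16, 5.93 and 4.21 FPKM in the liver and rose from 3.99 ± 0.87 in the thymus to 40.1 ± 5.22 in the liver (score difference 1.51, SE 0.11, adjusted p = 5.34e-06). Idi1, Fdft1, Cyp51 and Sc4mol, further enzymes of the cholesterol pathway, also shifted up. Of 24 listed genes 16 were tested, 7 rose and 6 fell, with 0 large decreases and a median shift of 0.183 points; Idi1 and Sqle passed the filter only through the liver. Srebf2, the pathway's transcription factor, fell from 58.2 ± 6.33 in the thymus to 34.6 ± 3.2 in the liver (score difference -0.61, SE 0.092, adjusted p = 0.000428), and Fasn, the fatty acid synthase, from 58.6 ± 4.92 in the thymus to 43.8 ± 3.36 in the liver (score difference -0.38, SE 0.08, adjusted p = 0.00275; by description adjusted p = 0.0608). As deposited 7 rose and 5 fell. By description 8 rose and 4 fell, with 1 large increase, and within GC and length bins there were 3.

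Most respiratory chain and ribosomal protein genes ranked slightly higher in the liver. Of 27 oxidative phosphorylation genes 16 rose and 5 fell, and of 42 ribosomal protein genes 29 rose and 9 fell, with 0 large shifts in both and median shifts of 2.77 and 0.406 points. As deposited 24 and 41 rose and 0 fell in either list. By description 15 and 29 rose and 7 and 8 fell. Within GC and length bins 12 respiratory chain genes rose and 8 fell, with a median shift of -0.259 points, and 24 ribosomal protein genes rose and 14 fell. Rps29, a small-subunit protein with a very short transcript, had 16.5, 13.2 and 17.97 FPKM in the thymus and 5532, 4750.1 and 4114 FPKM in the liver and went from 78.1 ± 3.28 in the thymus to 99.9 ± 0.016 in the liver (score difference 2.28, SE 0.051, adjusted p = 3.54e-08). Cox5b, a subunit of cytochrome oxidase, went from 82.97 ± 0.18 in the thymus to 96.1 ± 0.072 in the liver. In glycolysis 7 of 15 rose and 4 fell, with Ldhb, a lactate dehydrogenase subunit, the large increase (score difference 0.99, SE 0.056, adjusted p = 1.54e-06; by description adjusted p = 0.0589); as deposited 11 rose and 1 fell, and by description 8 and 5. Of 27 interferon-stimulated genes 7 rose and 8 fell (12 and 2 as deposited, 8 and 8 by description), with 0 large shifts. Psme2, a proteasome activator subunit, rose from 50.2 ± 0.11 in the thymus to 96.05 ± 0.22 in the liver (score difference 1.75, SE 0.033, adjusted p = 1.88e-08) in a list of MHC class I genes where 5 rose and 13 fell (10 and 4 as deposited, 4 and 12 by description). In the Bcl2 family 5 of 12 tested genes rose and 7 fell (9 and 2 as deposited, 4 and 6 by description). Mcl1, a survival factor, had 23.1, 24.8 and 24.99 FPKM in the thymus and 2.88, 2.87 and 3.02 FPKM in the liver and fell from 86.5 ± 0.57 in the thymus to 27.5 ± 1.46 in the liver (score difference -1.70, SE 0.049, adjusted p = 6.98e-08), and Bbc3, the death inducer PUMA, had 8.83, 8.84 and 10.7 FPKM in the thymus and 0.174, 0.144 and 0.384 FPKM in the liver.

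**Figure D3:**
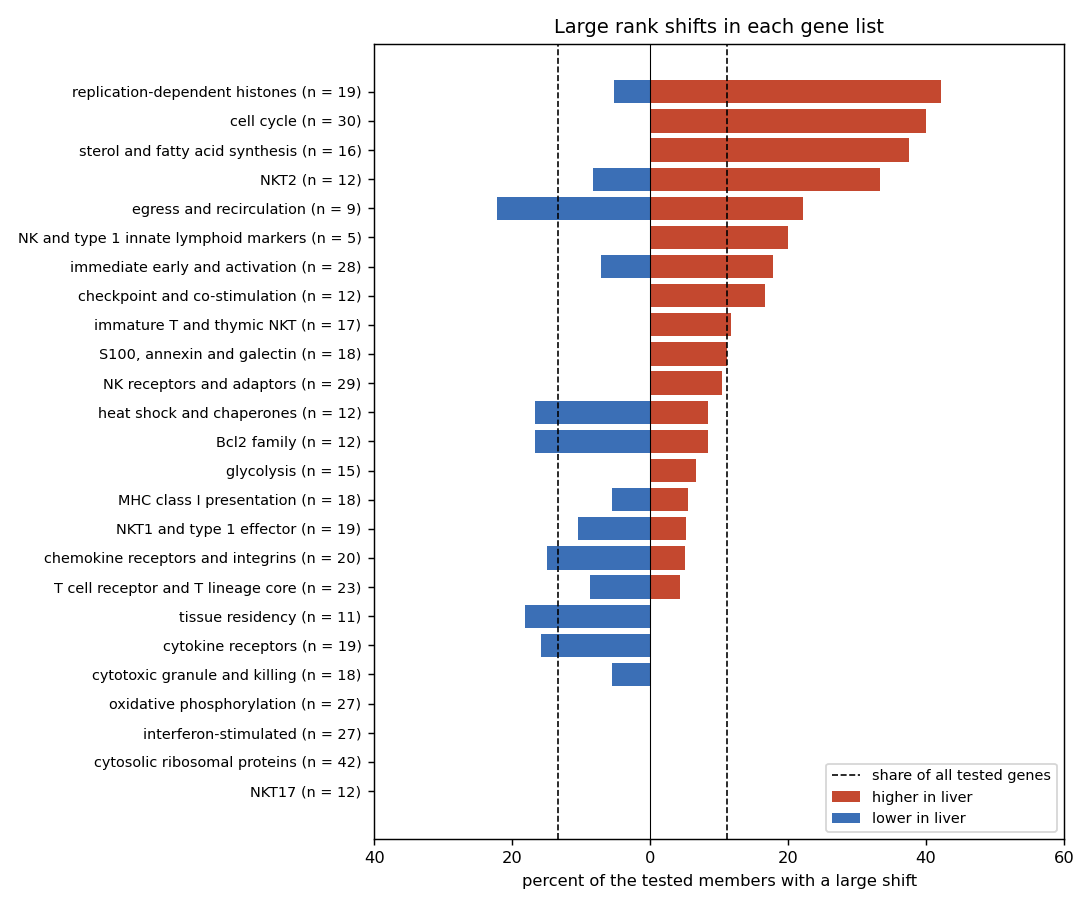
Percent of the tested members of each list with a large increase (red, right of 0) or a large decrease (blue, left of 0) in liver YFP+ libraries, for lists with at least 5 tested genes of which under 50% passed the filter only through the liver; dashed lines mark the 11.1% and 13.3% of all tested genes. Histones, cell cycle, sterol synthesis and NKT2 extend furthest to the right, while the ribosomal, respiratory, interferon and NKT17 lists have no bar. The NKT2 increases include Cd4, which is also a DP thymocyte marker.

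Markers of other cells were found in the liver YFP+ libraries, although the gate excludes CD4, CD8 and CD45R. Of 12 DP thymocyte markers 8 were tested, 7 rose and 1 fell, but 4 of the 8, with 4 of the 6 large increases, passed the filter only through the liver and were thus selected for a higher liver level. Dntt, the terminal transferase that adds bases at receptor gene joints, had 0.017, 0.06 and 0.01 FPKM in the thymus and 16.4, 16.3 and 15.7 FPKM in the liver. It moved from 1.17 ± 0.33 in the thymus to 69.95 ± 1.42 in the liver (score difference 2.799, SE 0.091, adjusted p = 1.05e-07). Ptcra, the pre-T cell receptor alpha chain, had 0.085, 0.199 and 0.04 FPKM in the thymus and 19.3, 17.3 and 15.2 FPKM in the liver. Cd8b1, a chain of CD8, had 0.189, 0.352 and 0.442 FPKM in the thymus and 15.3, 11.9 and 12.1 FPKM in the liver, and Cd24a, which immature thymocytes carry, had 0.095, 0 and 0 FPKM in the thymus and 4.402, 4.31 and 3.04 FPKM in the liver. Rag1 had 0, 0.007 and 0 FPKM in the thymus and 1.96, 1.33 and 1.89 FPKM in the liver and was not among the tested genes, nor was Rag2. In liver cKO libraries Dntt was at 0.486, 0.768 and 0.385 FPKM and Cd8b1 at 0.879, 0.595 and 1.06 FPKM, and the tissue shift differed between the origins (score difference of shifts 2.69, adjusted p = 1.63e-05 for Dntt and 1.92, adjusted p = 0.000118 for Cd8b1). As deposited 7 rose and 1 fell. By description 2 rose and 2 fell, with 2 large increases and 1 large decrease, Dntt and Cd8b1 missed the threshold (adjusted p = 0.0661 and 0.192) and Cd24a reversed (score difference -0.20, adjusted p = 0.476). Fewer cells of a type and less RNA per cell cannot be told apart in sorted bulk samples, for this and for every list.

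B cell and antigen presentation genes were near 0 in the thymus. Of 14 listed genes 6 were tested, all 6 through the liver alone, so the filter selected them for a high liver level; the list summed to 2.19 to 3.79 FPKM in the thymus and 107 to 115 FPKM in the liver. Cd74, the MHC class II invariant chain, had 0.147, 0.782 and 0.851 FPKM in the thymus and 45.7, 41.3 and 45.5 FPKM in the liver, and H2-Aa, an MHC class II chain, had 0, 0.131 and 0.453 FPKM in the thymus and 22.4, 21.3 and 27.04 FPKM in the liver. Cd79b, a B cell receptor chain, was lower and had 0.515, 1.24 and 1.15 FPKM in the thymus and 6.196, 5.13 and 7.18 FPKM in the liver. In liver cKO the list summed to 7.85 to 10.9 FPKM. Myeloid and Kupffer cell markers summed to 1.05 to 2.41 FPKM in the thymus and 152 to 211 FPKM in the liver, and in liver cKO to 68.8 to 81.6 FPKM; of 19 listed 8 were tested, again through the liver alone. Lyz2, the lysozyme of macrophages and neutrophils, had 0.344, 0.458 and 0.202 FPKM in the thymus and 56.6, 42.6 and 40.8 FPKM in the liver, and S100a8, a calcium-binding protein of neutrophils, had 0, 0 and 0 FPKM in the thymus and 55.8, 40.2 and 43.6 FPKM in the liver. The Kupffer cell marker Clec4f was at 0 in all 3 liver YFP+ libraries. Globin genes were near 0 in the thymus as well: Hba-a1, an alpha globin, had 0, 0.07 and 0 FPKM in the thymus and 170.04, 167 and 145 FPKM in the liver, and the erythroid list summed to 0.315 to 1.08 FPKM in the thymus and 642 to 743 FPKM in the liver. Alb, the albumin of hepatocytes, was at 0 in all 3 liver YFP+ libraries, although Hp, the haptoglobin that both hepatocytes and neutrophils make, had 0.068, 0.202 and 0.048 FPKM in the thymus and 8.29, 5.03 and 4.89 FPKM in the liver. None of the 15 endothelial and stromal, 9 thymic epithelial and 6 platelet markers reached the filter. The 3 gamma-delta T cell markers tested fell, with 5.46, 4.67 and 5.61 FPKM in the thymus and 1.103, 1.45 and 1.85 FPKM in the liver for 5830411N06Rik; as deposited 2 fell, by description 2 of the 3 rose and 0 fell, its fall missed the threshold (adjusted p = 0.211) and Cd163l1 reversed (score difference 0.30, adjusted p = 0.0358). The part of these cells in the other results was not tested.

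**Figure D4:**
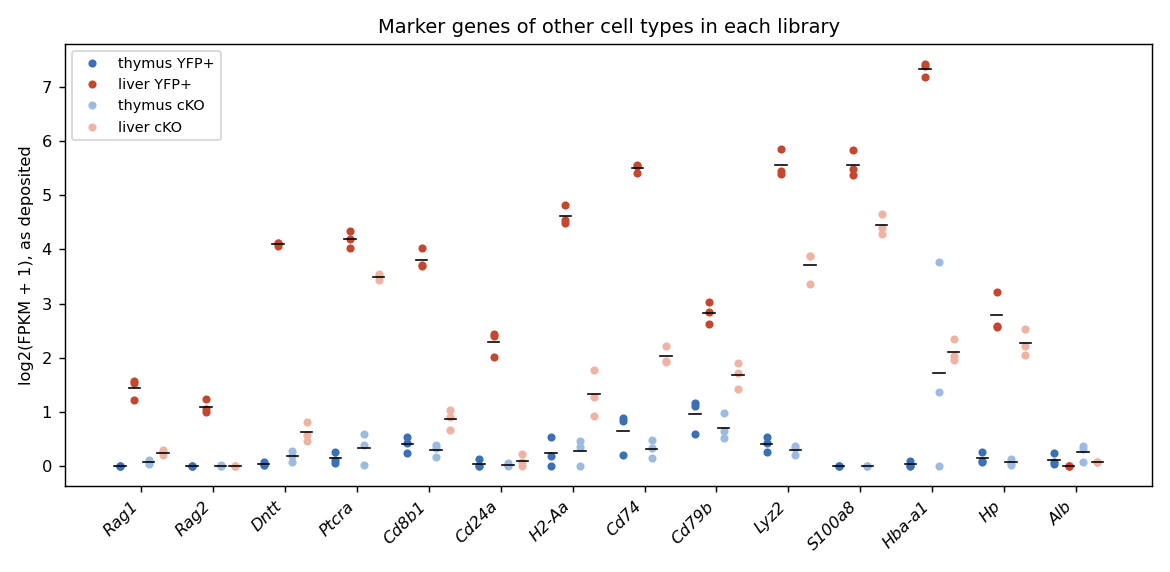
Level of 14 marker genes, log2(FPKM + 1) as deposited (y axis), in each library of the 4 groups; bars mark means of 3 libraries. Liver YFP+ libraries (dark red) are the highest for every gene shown except Alb, which is at 0 in them; thymus and liver values come from separately normalized tables.

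The genes with the largest shifts include several that no NKT list holds. Apart from the globins Hba-a1, Hba-a2, Hbb-b1, Hbb-b2 and Beta-s, the largest increases were Gm20594, Acta1 and Mir5109. Gm20594 had 0.072, 0 and 0 FPKM in the thymus and 269, 256 and 258 FPKM in the liver, and Acta1, the actin of skeletal muscle, had 0.025, 0.013 and 0.015 FPKM in the thymus and 107, 95.6 and 103 FPKM in the liver. Both were lower in liver cKO libraries than in liver YFP+ ones and still far above the thymus (238, 216 and 192 FPKM and 92.9, 83.1 and 91.2 FPKM). The largest decreases were Gnas, Cebpb and 6 miRNA loci. Gnas, the stimulatory G protein alpha subunit, had 17.4, 18.7 and 18.8 FPKM in the thymus and 0, 0 and 0.002 FPKM in the liver, and Cebpb, a transcription factor of myeloid and stress responses, had 14.7, 16.4 and 12.9 FPKM in the thymus and 0, 0.153 and 0.091 FPKM in the liver. In liver cKO they were at 0.005, 0.004 and 0.005 FPKM and 0.142, 0.085 and 0.048 FPKM. Of the 9800 tested genes, 880 had a thymus mean below 1 FPKM and 546 a liver mean below 1 FPKM. Each passed the filter only through the other tissue and was thus selected for a higher level there. Gm20594, Acta1, Hp, Hba-a1, Hba-a2, Hbb-b1 and Hbb-b2 were among the former. Gnas, Cebpb, Mir762, Mir2861, Mir1938, Bbc3, Sdc1 and Hspa1b were among the latter. In such files 0 may also stand for an estimate that failed.

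The miRNA loci that fell most are shown because their sequences differ in base composition; a locus value counts cDNA fragments that map there, which need not come from the mature miRNA. Sequences are from RefSeq (GRCm38.p6), 5′ to 3′, with the seed (bases 2 to 8) in capitals. For 5 of the 7 named miRNA loci an entry was matched; Mir1901 and Mir5109 are named only.
miR-762: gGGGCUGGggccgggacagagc
miR-2861: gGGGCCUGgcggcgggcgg
miR-1938: cGGUGGGAcuuguaguucgguc
miR-1981-5p: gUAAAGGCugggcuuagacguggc
miR-1981-3p: cAUCUAACccuggccuuugac
miR-682: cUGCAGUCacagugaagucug
No seed is shared among these 6 sequences. G and C make up 81.8% of miR-762 and 94.7% of miR-2861, against 52.4% of miR-682 and of miR-1981-3p. The locus of miR-762 (chr7:127708534-127708555, + strand) lies in an exon of Bcl7c on the opposite strand, and miR-2861 (chr2:32712819-32712837, - strand) in an exon of Cdk9. The loci of miR-1938 (chr12:40222782-40222803, - strand) and miR-1981-5p (chr1:184822465-184822488, - strand) lie in introns of Ifrd1 and Marc2, by the GENCODE annotation of the same build. The locus of miR-682 (chr13:75645119-75645139, + strand) lies in the processed pseudogene Gm4149. Mir762 had 10.7, 10.9 and 11.5 FPKM in the thymus and 0, 0 and 0 FPKM in the liver, while Mir682 had 2719, 2713 and 2975 FPKM in the thymus and 13.9, 7.67 and 13.7 FPKM in the liver. Mir2861 and Mir1938 were at 0 in all 3 liver libraries, with 5.14, 5.05 and 7.87 FPKM and 20.1, 28.3 and 7.21 FPKM in the thymus. Among the genes at these loci, Bcl7c fell from 76.7 ± 1.15 in the thymus to 28.4 ± 8.22 in the liver (score difference -1.31, SE 0.12, adjusted p = 1.84e-05), Cdk9 from 85.9 ± 0.63 in the thymus to 66.2 ± 1.01 in the liver (score difference -0.66, SE 0.037, adjusted p = 1.4e-06) and Ifrd1 from 83.3 ± 3.09 in the thymus to 54.7 ± 3.81 in the liver (score difference -0.85, SE 0.074, adjusted p = 1.54e-05).

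Rank shifts went with transcript length and, at the top end, with GC share. For the 98.6% of tested genes with a transcript in GENCODE, the median shift was 11.3 points in the decile of the shortest transcripts and -12.1 points in that of the longest (Spearman rho -0.37 across genes, a description). It was 2.23 points in the lowest GC decile and -10.1 points in the highest, with Jund, Cebpb and Bbc3 at 67.2%, 67.2% and 65.2% GC. The cKO libraries showed 7.12 and -8.26 points over length and 1.06 and -7.76 over GC. Their part in the results was not tested beyond the ranks taken within bins, where 6896 genes were called within length bins and 6748 within GC and length bins, of 9664 genes.

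**Figure D5:**
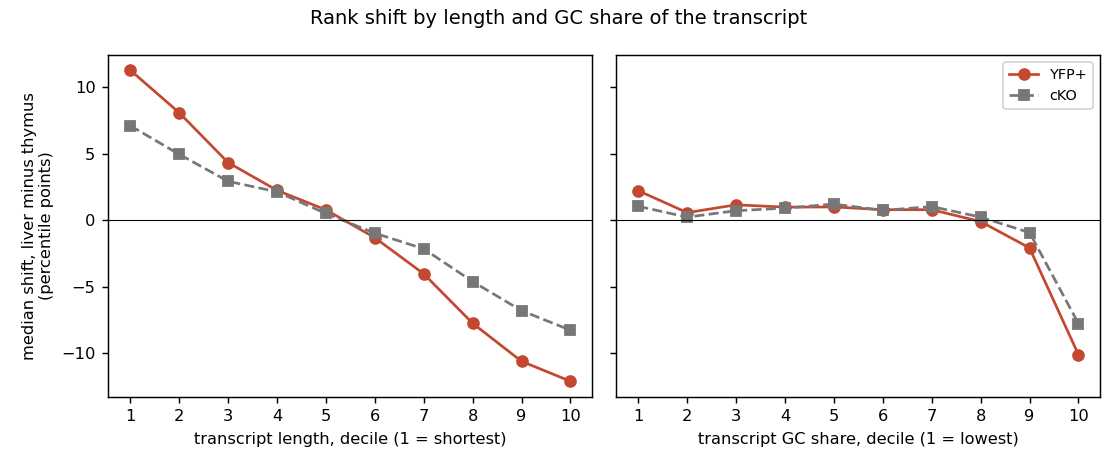
Median percentile shift from thymus to liver (y axis) of tested genes in 10 equal groups by transcript length (left) and GC share (right), for YFP+ (red circles) and cKO cells (grey squares). Short transcripts rank higher and long ones lower in the liver, from 11.3 to -12.1 points in YFP+ cells, and the highest GC group falls by 10.1 points.

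The shift of DP-origin cells was largely that of DN-origin cells, which come from the same tables. Percentile shifts of the 9800 genes in YFP+ and cKO cells correlated at r = 0.919 and rho = 0.91, a description across genes that share tissue, table and library type. Of the 2394 large YFP+ shifts, 2358 had a cKO shift in the same direction, and for 1711 it was also at least 25 points. A difference in the tissue shift between origins (YFP+ minus cKO, all 12 libraries, grouped by title only) was called for 1282 genes (13.1%), 509 above 0 (5.19%) and 773 below 0 (7.89%). Since table and library type are shared by both origins within a tissue, an effect of them on a gene's score cancels here only if it is equal in both. The trend with length was not equal: 11.3 to -12.1 points in YFP+ and 7.12 to -8.26 points in cKO cells. Within length bins 1024 differences were called, 839 of them also in the main fit. Within GC and length bins 950 were, 718 of them also in the main fit. Among the large YFP+ increases, 166 of 1089 had a called difference above 0, and among the large decreases 167 of 1305 had one below 0. The same YFP+ shift enters both the selection and the difference. An excess over the 5.19% and 7.89% of all tested genes is thus built in, and no conclusion is drawn from these counts. Ahr was one of the latter: it was at 0.7, 1.08 and 1.54 FPKM in thymus cKO and 0.787, 0.736 and 0.855 FPKM in liver cKO, and its difference was -1.27, adjusted p = 0.000947. Il4 rose in both origins and more in cKO cells, with 0.432, 0.969 and 0.617 FPKM in thymus cKO and 14.1, 14.6 and 8.73 FPKM in liver cKO (difference -1.07, adjusted p = 0.00183). For Tbx21 (0.01, adjusted p = 0.927) and Runx3 (0.02, adjusted p = 0.925) the difference missed the threshold. S1pr1 differed (0.54, adjusted p = 0.00415), as did Klf2 (0.33, adjusted p = 0.00535), Zbtb16 (-0.78, adjusted p = 0.000819) and Ifng (1.07, adjusted p = 0.00265). By list, NK receptors and adaptors had 12 called differences above 0 and 3 below among 29 tested. NKT2 genes had 1 above and 7 below among 12, and chemokine receptors and integrins 0 above and 8 below among 20. Immediate early genes had 16 called differences above 0 and 1 below among 28 tested. Thymus cKO replicate 1 stood apart in these genes and in heat shock genes, with Fos at 36.02, 70.7 and 69.7 FPKM, Jun at 28.7, 80.5 and 79.3 FPKM, Dusp1 at 269.8, 620.5 and 639 FPKM and Hspa1b at 108, 857 and 935 FPKM across the 3 thymus cKO libraries. Those levels enter the differences; without that library 18 immediate early genes had a called difference above 0 and 1 below, and over all 12 fits that leave out 1 library 15 to 20 and 0 to 2.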

How the data were processed

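The series holds 12 RNA-seq libraries of sorted NKT cells, in 4 groups of 3. The authors deposited FPKM for 23284 genes, with liver and thymus in separate tables. TopHat2 2.8.0, Cufflinks 2.1.1 and the build mm9 are named by the submitters' processing notes. Per the labels' protocols, cDNA came from the SMARTer kit and libraries from a TruSeq or a ThruPLEX kit, without saying which library had which. FPKM carry no read totals, so depth is unknown, and the strand setting was not given.

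Groups follow the titles. Genes whose FPKM averaged 1 or more across the 6 YFP+ libraries were ranked within each library, ranks were turned into normal scores, and limma 3.58.1 (trend, R 4.3.3) tested liver against thymus, with Benjamini-Hochberg adjustment over all 9800 genes. The same genes in all 12 libraries gave the difference between origins. The steps were run on simulated data with the thymus spread in both tissues and a common scale factor for the liver libraries. No effect of transcript length, GC share or library type on single genes was simulated, so that run does not bear on them. Alternatives changed the scale, filter, length or GC bins, grouping and libraries; bins of GC share and the protein-coding filter were chosen after seeing the data. Members, the 34 gene lists and tests were chosen with earlier results of these data known. Named genes are, per list, up to 2 called genes without overlap and with the largest score difference, the 8 largest increases and decreases, the 4 smallest p of the difference between origins in each direction, and 13 fixed genes; others that are named were chosen after their values were seen. Some genes that the rule names are not reported here.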

Additional observations from a re-analysis of the deposited data

Results flagged for a closer look

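The tissue shift of 8 named genes differed between DP-origin (YFP+) and DN-origin (cKO) cells by a test of the difference itself (limma on all 12 libraries, adjusted over 9800 genes, of which 13.1% were called); they are the 4 smallest p-values in each direction. The liver libraries were grouped by their titles, which the descriptions contradict, and the difference was not computed by description. Taken by description, the Dntt shift in YFP+ cells was 0.40 (limma, adjusted p = 0.0661), against 2.799 by the titles. Values are the score shift from thymus to liver in YFP+ cells minus that in cKO cells. Of those above 0, Dntt, the terminal transferase, had 2.69 (adjusted p = 1.63e-05), with 0.017, 0.06 and 0.01 FPKM in the thymus and 16.4, 16.3 and 15.7 FPKM in the liver in YFP+ cells, and 0.059, 0.214 and 0.138 FPKM in thymus cKO and 0.486, 0.768 and 0.385 FPKM in liver cKO. Klra7, a Ly49 receptor, had 0.82 (adjusted p = 2.25e-07): it was at 263, 251 and 225 FPKM in thymus cKO and 167, 171 and 167 FPKM in liver cKO. Its rank fell in cKO cells and rose in YFP+ cells. On the score scale the fall was larger than the rise, which was 0.30 and reversed within length bins (-0.075). Klra13-ps, a Ly49 pseudogene that may share reads with its family, had 0.528 (adjusted p = 1.46e-05), and Gramd3 had 0.648 (adjusted p = 1.63e-05); for both the YFP+ shift alone missed the threshold (adjusted p = 0.581 and 0.709), and by description it passed (0.33, adjusted p = 1.99e-06 and -0.13, adjusted p = 0.00952).

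Of those below 0, Pdcd1 (the inhibitory receptor PD-1) had -2.38 (adjusted p = 1.85e-06). It had 22.3, 20.6 and 34.9 FPKM in the thymus and 26.8, 22.1 and 24.8 FPKM in the liver in YFP+ cells, and 0.768, 0.35 and 0.498 FPKM in thymus cKO and 13.9, 13.4 and 13.7 FPKM in liver cKO, so that its rank fell in YFP+ cells and rose in cKO cells. Xkrx had -1.51 (adjusted p = 1.71e-05), Ptprv -1.42 (adjusted p = 1.65e-05) and Serinc3 -0.464 (adjusted p = 2.07e-05). Ptprv fell by 40.1 points in YFP+ cells and rose by 10.0 points in cKO cells, while Xkrx rose in both and further in cKO cells.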

How the results depend on the processing

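Of 2100 checks of named genes under an alternative, 2035 kept their direction and side of the threshold, 36 lost the call, 5 gained it and 24 reversed. The 7652 calls became 4819 with a mean FPKM of at least 5, where 5847 genes were tested, and the 2394 large shifts became 1380 without a filter on low values, which stretches the ranks over 20925 genes. Leaving out 1 library gave 7156 to 7572 calls, 2286 to 2476 large shifts and, for the difference between origins (main 1282), 858 to 1378. Same-numbered libraries share only a number: their deviations correlated at -0.0202, 0.00647 and -0.0205, and no thymus library correlated best with its own number. With the replicate block 7479 genes, 2394 large shifts and 1082 differences were called.

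Score differences reversed as follows; the cause was not tested. By description: Ccr7 -0.043, Cd163l1 0.30, Cd24a -0.20, Cd69 -0.12, Plac8 -0.26 and Tnfrsf4 -0.855. On log2 values as deposited and then with median-ratio scaling: Cxcr6 1.39 and 0.95, Gata3 0.70 and 0.26, Gramd3 0.81 and 0.37, and Trf 0.46 and 0.028. Within length bins: Cxcr6 0.048, Gramd3 0.29, Klra13-ps -0.15, Klra7 -0.075 and Zbtb16 0.04996. Within GC and length bins: Gramd3 0.079 and Zbtb16 0.19. Gramd3 was 0.0017 among protein-coding genes. Leaving out 1 library gave -0.0452 to 0.0079 for Gramd3, highest without thymus YFP+ replicate 1, and -0.0105 to 0.037 for Klra13-ps, lowest without thymus YFP+ replicate 2. Depth is unknown, so the counting error of values near 0 could not be estimated.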
